A study of Homo sapiens with 6 samples.

Results

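The genes described here are 10 components of the Notch pathway: the receptors NOTCH1, NOTCH2 and NOTCH3, the ligands JAG1, JAG2 and DLL1, the DNA-binding factor RBPJ, the coactivator MAML2, and the target genes HES1 and HEY1. They were taken by symbol from a table of 54261 genes, and all 10 had a row. RNA was sequenced from T24, an established human bladder cancer cell line. In the MTHFD2-shRNA2 group (3 libraries) the cells carried a lentiviral short hairpin RNA against MTHFD2, a mitochondrial enzyme of folate metabolism; in the NC group (3 libraries) they carried the negative control lentivirus. Both vectors also expressed the fluorescent protein ZsGreen and a puromycin resistance gene, and infected cells of both groups were selected with puromycin. A single hairpin was sequenced, so effects of that hairpin other than on MTHFD2 cannot be told apart from loss of the enzyme. The labels do not say that the 3 replicates of a group were separate cultures, so p-values measure the spread between these libraries, which may be technical.

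Library totals lay between 17801990 and 19978392 counts. MTHFD2 was at 26.7, 33.6 and 36.7 CPM (counts per 1000000 of a library size scaled by TMM) in MTHFD2-shRNA2 libraries, against 185, 188 and 181 CPM in NC libraries. The hairpin's target thus fell by 2.51 ± 0.13 on the log2 scale (SE; edgeR adjusted p = 1.8e-06). Of 15 bladder epithelial markers, 5 exceeded 1 CPM in every library, while UPK3A and KRT20, markers of differentiated urothelium, were at 0 throughout. Their summed level was 1323, 1004 and 1189 CPM in MTHFD2-shRNA2 libraries and 2119, 2110 and 2518 CPM in NC libraries; of 6 tested, 1 rose and 2 fell, where 9.71% of all tested genes rose and 7.58% fell. The summed level of 12 fibroblast markers was 72.4, 47.4 and 64.3 CPM in MTHFD2-shRNA2 replicates 1 to 3 and 28.2, 31.1 and 23.8 CPM in NC replicates 1 to 3. Of the 12, 3 exceeded 1 CPM in every library and none was at 0 in all libraries. The other 5 were too low to be tested, and 5 of the 7 tested rose. The sums of 8 mural, 9 endothelial and 8 leukocyte markers overlapped between the groups for each list; 1 of 4 tested mural markers rose, 1 of 2 tested endothelial markers fell, and the 1 tested leukocyte marker did not pass. What part the marker shifts have in the results below was not tested.

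Notch receptors are membrane proteins that are activated by a ligand on a neighbouring cell. Ligand binding exposes the receptor to cleavage by ADAM proteases and then by gamma-secretase, which frees the intracellular part to enter the nucleus. There it joins RBPJ, which otherwise recruits corepressors, and a Mastermind-like (MAML) coactivator, and the complex turns on genes such as those of the HES and HEY families of transcriptional repressors. In bladder epithelium and its cancers the pathway has been linked to differentiation, and its receptors have been described with both growth-restraining and growth-promoting roles.

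RBPJ recognises DNA with the core letters TGGGAA, which RBPJ-bound promoters often carry as GTGGGAA. Both forms were searched on both strands in the 250 bases before each RefSeq gene start (GRCh38.p14); each match of the longer form also contains the shorter one. The longer form was present in 5.43% of 35116 such windows and the shorter form in 20.8%. Of the members, 8 had windows, 12 in all, while DLL1 and HEY1 had none and were not searched. GTGGGAA occurred in 2 of the 12 windows, 1 of HES1 and 1 of the 5 of RBPJ. Of the 11 other genes of the HES, HEY and related families, HES4, HES5, HEY2 and HEYL held it. Of the 15 other pathway genes that passed the test below, 12 had windows, and it occurred in L3MBTL3 alone, in 1 of 23 windows. APH1B, MYC and SOX9 had no window and were not searched. A match describes the letters and is no evidence of binding in these cells. The following stretches are written 5′ to 3′ on the strand of the gene, with 20 bases on each side of GTGGGAA, and capitals mark TGGGAA or, where the match lies on the other strand, its complement TTCCCA. They are shown because log2 fold changes of HES1, HES4, HEY2 and RBPJ are given below, and L3MBTL3 passed the test. HES5 and HEYL carry the same letters at or near 0 counts.
HES1 (chr3:194136043-194136089, plus strand): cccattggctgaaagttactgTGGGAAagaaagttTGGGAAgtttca
HES4 (chr1:1000148-1000194, minus strand): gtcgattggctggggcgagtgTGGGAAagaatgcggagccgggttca
HES5 (chr1:2530318-2530364, minus strand): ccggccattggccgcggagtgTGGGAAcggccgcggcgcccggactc
HES5 (chr1:2530461-2530507, minus strand): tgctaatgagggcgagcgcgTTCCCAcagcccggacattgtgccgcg
HEY2 (chr6:125749399-125749445, plus strand): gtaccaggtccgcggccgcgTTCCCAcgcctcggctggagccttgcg
HEYL (chr1:39639795-39639841, minus strand): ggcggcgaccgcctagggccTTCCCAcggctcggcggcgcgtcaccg
RBPJ (chr4:26319611-26319657, plus strand): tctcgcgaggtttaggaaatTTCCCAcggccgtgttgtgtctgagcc
RBPJ (chr4:26319653-26319699, plus strand): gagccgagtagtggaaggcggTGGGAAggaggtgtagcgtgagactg
L3MBTL3 (chr6:130019462-130019508, plus strand): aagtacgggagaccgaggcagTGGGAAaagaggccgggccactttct
In the HES1 stretch, TGGGAA occurs at 2 places on the same strand, and the GTGGGAA match begins 85 bases before the gene start. HES4 and the first HES5 stretch have their match at a similar distance, 77 and 81 bases before the start.

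Among the 10 members, RNA of HES1, NOTCH2, RBPJ and JAG1 was the most abundant in T24 cells of both groups. Before division by length HES1 had the lowest mean of them. It was at 24.8 CPM in MTHFD2-shRNA2 and 26.4 CPM in NC cells, against 31.6 and 29.5 CPM for JAG1. Divided by exonic length, HES1 stood at 12.03 ± 2.43 CPM per kilobase in MTHFD2-shRNA2 cells and 12.8 ± 1.03 in NC cells (SD, n = 3 each). NOTCH2 was at 9.13 ± 1.83 and 8.54 ± 0.938, RBPJ at 7.95 ± 0.790 and 6.41 ± 0.166, and JAG1 at 3.40 ± 0.663 and 3.17 ± 0.241 CPM per kilobase in MTHFD2-shRNA2 and NC cells. JAG2 (1.01 ± 0.115 and 1.27 ± 0.0279), NOTCH1 (0.579 ± 0.117 and 0.549 ± 0.0724) and MAML2 (0.418 ± 0.169 and 0.199 ± 0.0757) followed on the same scale. HEY1 was at 0.122 ± 0.0515 and 0.177 ± 0.0473, and NOTCH3 and DLL1 were lower still. On this length-scaled measure the order of the 10 members was the same in both groups. Among NC libraries only the ranges of neighbours MAML2 and HEY1, and of NOTCH3 and DLL1, overlapped. Among MTHFD2-shRNA2 libraries those of HES1 and NOTCH2, NOTCH2 and RBPJ, and NOTCH1 and MAML2 overlapped.

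**Figure D1:**
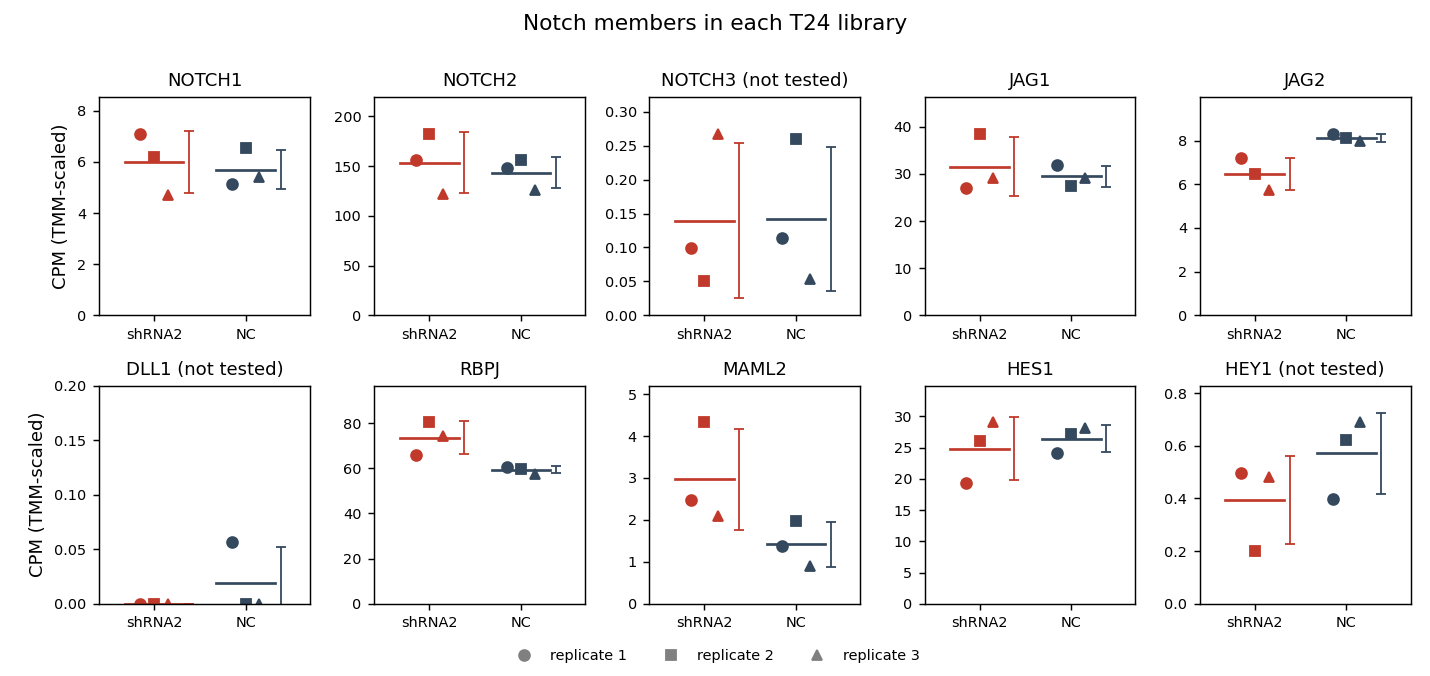
Level of each of the 10 members in each library, in CPM on TMM-scaled library sizes (vertical axes start at 0 and differ between panels). Symbols are libraries, horizontal lines are group means and bars are SD (n = 3); RBPJ and MAML2 lie higher and JAG2 lower in all 3 MTHFD2-shRNA2 libraries, and the groups overlap for NOTCH1, NOTCH2, JAG1 and HES1.

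The question put to these genes was whether lowering MTHFD2 changed their RNA. Of the 10 members, 7 had enough counts to be tested, and none of the 7 passed at an adjusted p under 0.05 in edgeR's quasi-likelihood test, where 17.3% of 13896 genes did, 9.71% higher and 7.58% lower in MTHFD2-shRNA2 cells. At an unadjusted p under 0.05 edgeR listed 2 of the 7, RBPJ and MAML2, against 33.4% of all tested genes, and DESeq2 called 1, MAML2 (adjusted p = 0.0332), against 19.4% of all genes. The groups did not overlap in CPM for 3 of the 7 members (RBPJ, MAML2 and JAG2), against 39.1% of all tested genes. The median log2 fold change of the 7 was 0.10, against 0.0072 over all tested genes. These counts do not set the members apart from the rest of the table. In such bulk samples, fewer cells expressing a gene and less RNA per cell cannot be told apart.

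Among the receptors, NOTCH2 dominated in every library. NOTCH2 (GRCh38 chromosome 1, 119911553 to 120069626, minus strand) was at 156, 183 and 122 CPM in MTHFD2-shRNA2 libraries and 148, 157 and 126 CPM in NC libraries. The groups overlapped, and replicate 3 was the lowest library of each. The log2 fold change was 0.10 ± 0.14 (SE), with a 95% interval of -0.22 to 0.41 and edgeR adjusted p = 0.669. The interval leaves out a doubling or halving of the RNA. Reads of NOTCH2 can be shared with its near-identical partial copies; the row NOTCH2NL of the table held 10, 15 and 10 counts in MTHFD2-shRNA2 libraries and 8, 10 and 19 in NC libraries.

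NOTCH1 (chromosome 9, 136494433 to 136545786, minus strand), which is often inactivated by mutation in squamous cancers, was at 7.11, 6.20 and 4.71 CPM in MTHFD2-shRNA2 libraries and 5.13, 6.55 and 5.42 CPM in NC libraries. The NC values lay within the MTHFD2-shRNA2 range. Its log2 fold change was 0.08 ± 0.20 (95% interval -0.35 to 0.50; edgeR adjusted p = 0.816). NOTCH3 (chromosome 19, 15159038 to 15200981, minus strand), a receptor best known from vascular smooth muscle, held 2, 1 and 5 counts in MTHFD2-shRNA2 libraries and 2, 5 and 1 counts in NC libraries. That is 8 counts in each group, and no change was detectable at this depth. The fourth receptor, NOTCH4, had 0 counts in all 6 libraries. Per exonic length, NOTCH2 made up 93.8% ± 0.870 of the summed level of the 3 member receptors in MTHFD2-shRNA2 cells and 93.8% ± 0.661 in NC cells (SD, n = 3 each). Its level was between 13.5 and 18.2 times that of NOTCH1 across the 6 libraries.

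Among the ligands, JAG1 was the most abundant, and JAG2 had the lowest fold change of the 7 tested members. JAG1 (chromosome 20, 10637684 to 10673999, minus strand) was at 26.9, 38.6 and 29.2 CPM in MTHFD2-shRNA2 libraries and 31.9, 27.5 and 29.1 CPM in NC libraries. Replicate 2 of the MTHFD2-shRNA2 group stood above all others, and the remaining libraries were intermixed. The log2 fold change was 0.10 ± 0.14 (95% interval -0.21 to 0.41; edgeR adjusted p = 0.662). JAG2 (chromosome 14, 105140981 to 105168824, minus strand) was at 7.21, 6.45 and 5.73 CPM in MTHFD2-shRNA2 libraries and 8.32, 8.11 and 7.97 CPM in NC libraries. All 3 MTHFD2-shRNA2 libraries lay below all 3 NC libraries, a pattern that 19% of all tested genes showed in that direction. Its log2 fold change of -0.33 ± 0.16 had a 95% interval of -0.67 to 0.01 and did not pass (edgeR adjusted p = 0.159).

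DLL1 (chromosome 6, 170282206 to 170306565, minus strand), a Delta-like ligand, had 0 counts in every MTHFD2-shRNA2 library, which allows up to 0.149 to 0.161 CPM per library, and 1 count in a single NC library. Of the Delta-like ligands outside the members, DLL4 was at 1.24, 1.31 and 1.93 CPM in MTHFD2-shRNA2 libraries and 0.684, 0.676 and 1.17 CPM in NC libraries. Its groups did not overlap, but the log2 fold change of 0.81 ± 0.35 did not pass (edgeR adjusted p = 0.122). DLL3, an inhibitory ligand, had a log2 fold change of 0.20 ± 0.34 (edgeR adjusted p = 0.714). Per exonic length, JAG1 made up 76.7% ± 4.32 of the summed level of the 3 member ligands in MTHFD2-shRNA2 cells and 71.2% ± 1.15 in NC cells (SD, n = 3 each). The shares overlapped: JAG1 held 72.0%, 80.4% and 77.8% in MTHFD2-shRNA2 libraries and 72.2%, 70.0% and 71.5% in NC libraries.

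**Figure D2:**
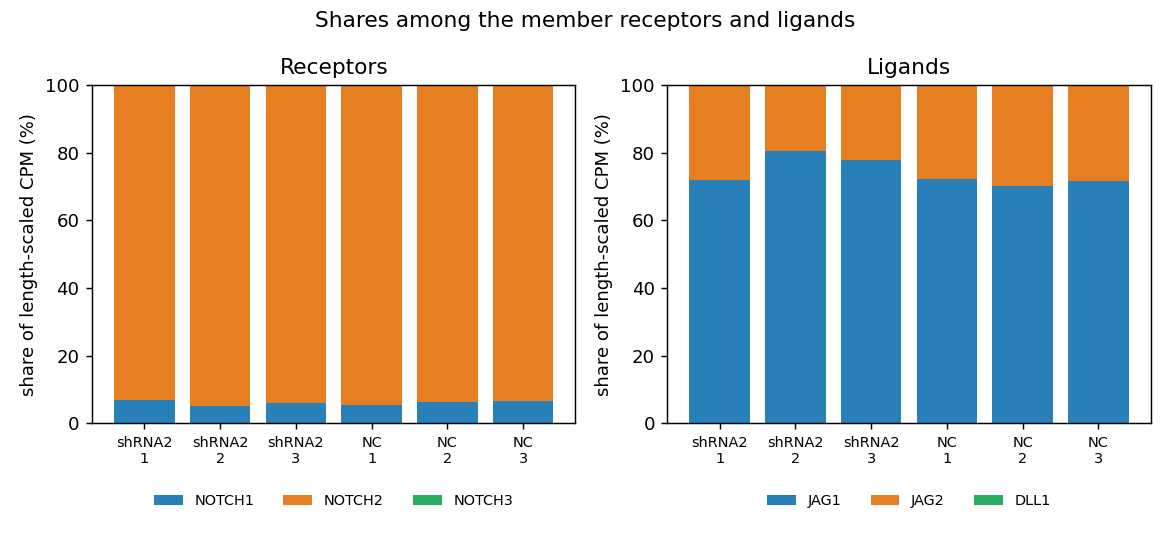
Share of each receptor (left) and ligand (right) in the summed length-scaled CPM of its kind, in percent, by library. NOTCH2 takes over 93% of the receptor level in every library, JAG1 takes 70.0% to 80.4% of the ligand level, and NOTCH3 and DLL1 are too low to be seen.

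The nuclear partners of the receptor had the largest upward fold changes of the 7 tested members. RBPJ (chromosome 4, 26163455 to 26435131, plus strand) was at 65.9, 80.5 and 74.2 CPM in MTHFD2-shRNA2 libraries and 60.6, 59.6 and 57.6 CPM in NC libraries. All 3 MTHFD2-shRNA2 libraries lay above all 3 NC libraries, a pattern that 20.1% of all tested genes showed in that direction. The log2 fold change was 0.31 ± 0.11 (95% interval 0.08 to 0.54), which did not pass (edgeR adjusted p = 0.065). With trends on GC content and exonic length removed from each library it was 0.13 (edgeR adjusted p = 0.229). Without MTHFD2-shRNA2 replicate 1 RBPJ passed (0.38, edgeR adjusted p = 0.0333), in a fit where 18.4% of all genes did.

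MAML2 (chromosome 11, 95976598 to 96343180, minus strand), a coactivator known for its fusion with CRTC1 in salivary gland tumours, held few counts. It was at 2.49, 4.34 and 2.09 CPM in MTHFD2-shRNA2 libraries (50, 86 and 39 counts) and 1.37, 1.98 and 0.903 CPM in NC libraries (24, 38 and 17 counts). The groups did not overlap, though the lowest MTHFD2-shRNA2 library lay close to the highest NC library. The log2 fold change was 1.07 ± 0.35 (95% interval 0.30 to 1.83), just short of the threshold (edgeR adjusted p = 0.0559). The call depended on the setting. MAML2 passed by DESeq2 and also when genes of low count were kept (edgeR adjusted p = 0.0059), where 12% of all genes passed. It also passed without MTHFD2-shRNA2 replicate 3 (edgeR adjusted p = 0.0393), where 18.6% of all genes passed, and without NC replicate 2 (edgeR adjusted p = 0.0333), where 11.8% did, but not when any of the other 4 libraries was omitted. Without MTHFD2-shRNA2 replicate 2 its log2 fold change was 0.69 (edgeR adjusted p = 0.223).

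RBPJ and MAML2 were highest in MTHFD2-shRNA2 replicate 2. That library had the lowest sum of its group for the fibroblast markers (47.4 CPM, nearest to NC) and also for the bladder epithelial markers (1004 CPM, furthest from NC). Set alone against the NC group it gave log2 fold changes of 0.43 for RBPJ and 1.60 for MAML2, with 30% of all genes passing there. As it is the highest library for both genes, these values describe that library and do not stand as a separate test.

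The targets HES1 and HEY1 encode transcriptional repressors that are the usual readout of Notch activity. HES1 (chromosome 3, 194136145 to 194138732, plus strand) was at 19.3, 26.0 and 29.1 CPM in MTHFD2-shRNA2 libraries and 24.1, 27.1 and 28.1 CPM in NC libraries. The MTHFD2-shRNA2 range enclosed the NC range. The log2 fold change was -0.09 ± 0.15, with a 95% interval of -0.42 to 0.23 (edgeR adjusted p = 0.695), so a halving or a doubling of HES1 RNA lay outside the interval. HEY1 (chromosome 8, 79764010 to 79767863, minus strand) held 10, 4 and 9 counts in MTHFD2-shRNA2 libraries and 7, 12 and 13 counts in NC libraries, and it was too low for the main test. Without the low-count filter its log2 fold change was -0.54 (edgeR adjusted p = 0.587).

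**Figure D3:**
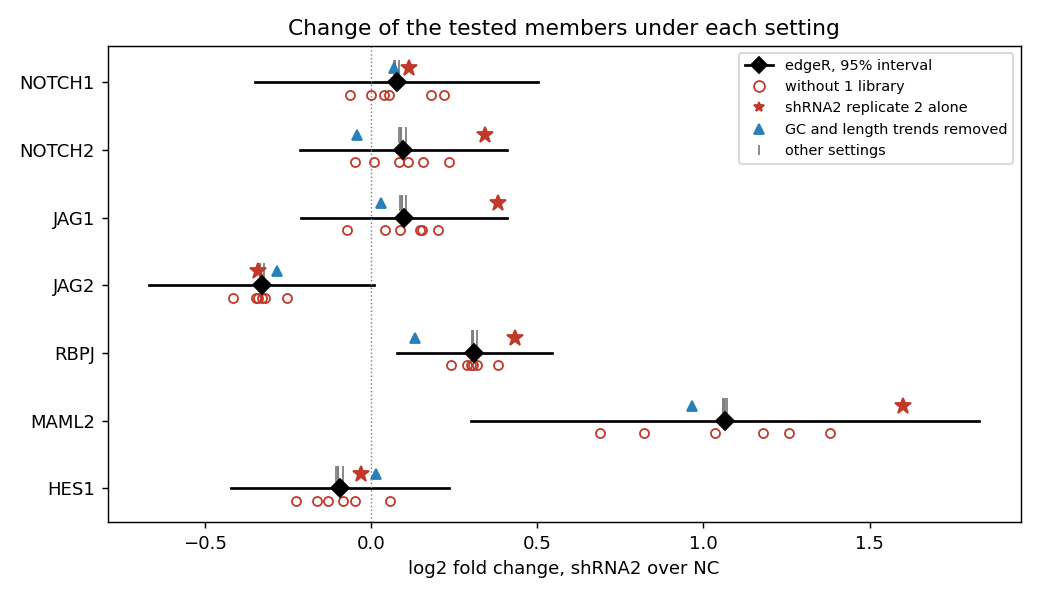
Log2 fold change, MTHFD2-shRNA2 over NC, of the 7 tested members. Diamonds with lines are the edgeR estimate and its 95% interval, and the other symbols are the same quantity under other settings; NOTCH1, NOTCH2, JAG1 and HES1 lie on both sides of 0, RBPJ and MAML2 stay above it and JAG2 below it.

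The rest of the pathway was read from a list of 93 genes in 10 groups by role, none of them a member. Of 70 tested, 9 rose and 6 fell, 21.4% against 17.3% of all tested genes, and their median log2 fold change was -0.0014. By role, 23.5% of tested corepressors and 20% of ligand endocytosis genes passed. So did 14.3% of coactivators and of receptor glycosylation enzymes, and 11.1% of receptor cleavage and of receptor turnover genes. The share was 33.3% for other HES, HEY and related genes, 66.7% for other reported targets and 0% for other receptors and ligands and noncanonical ligands. No role had more than 17 tested genes.

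Among the coactivators, the third Mastermind-like gene passed. MAML3 (chromosome 4, 139716753 to 140154184, minus strand) was at 12.2, 16.0 and 12.4 CPM in MTHFD2-shRNA2 libraries and 4.90, 5.67 and 5.05 CPM in NC libraries. The groups were far apart, and MAML3 rose by 1.38 ± 0.16 on the log2 scale (edgeR adjusted p = 0.000476), and it passed whichever of the 6 libraries was omitted. MAML1, the most abundant of the family, had a log2 fold change of 0.07 ± 0.12 (95% interval -0.20 to 0.34; edgeR adjusted p = 0.729). Per exonic length, MAML3 made up 13.1% of the family's level in MTHFD2-shRNA2 cells and 5.78% in NC cells, MAML2 2.76% and 1.53%, and MAML1 84.2% and 92.7%. Of the 7 other coactivators tested, which include the acetyltransferases EP300 and CREBBP, MAML3 alone passed (14.3%, against 17.3% of all tested genes).

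**Figure D4:**
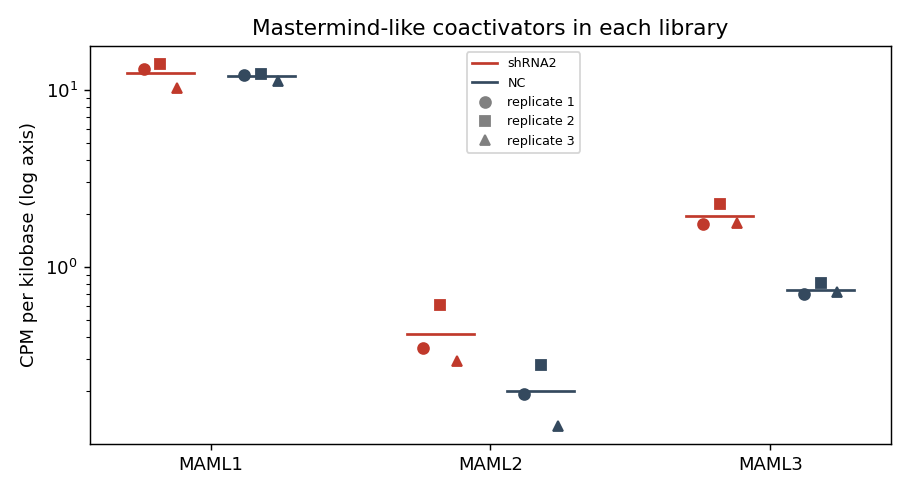
Level of the 3 Mastermind-like coactivator genes in each library, in CPM per kilobase of exon on a log axis, with group means as lines. MAML3 and MAML2 are higher in all 3 MTHFD2-shRNA2 libraries than in the NC libraries, and MAML1 overlaps between the groups.

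Of 17 corepressor genes tested, 3 rose and 1 fell, 23.5% against 17.3% of all tested genes (median log2 fold change 0.0024). TLE2 and TLE4 encode Groucho-family proteins that HES repressors recruit. TLE2, at a low level, was at 1.54, 3.53 and 2.36 CPM in MTHFD2-shRNA2 libraries and 1.14, 0.832 and 0.744 CPM in NC libraries, and rose by 1.45 ± 0.35 (edgeR adjusted p = 0.0173). TLE4 rose by 0.46 ± 0.11 (edgeR adjusted p = 0.0143). L3MBTL3, a protein that binds RBPJ and limits its targets, was at 27.05, 35.5 and 33.2 CPM in MTHFD2-shRNA2 libraries and 19.9, 20.1 and 18.7 CPM in NC libraries, and rose by 0.70 ± 0.13 (edgeR adjusted p = 0.00446). CTBP1, a corepressor shared by many factors, fell by 0.35 ± 0.10 (edgeR adjusted p = 0.0404). Omitting 1 library at a time, the call of CTBP1 was lost without MTHFD2-shRNA2 replicate 2 or any 1 NC library (edgeR adjusted p up to 0.153). That of TLE2 was lost without MTHFD2-shRNA2 replicate 2 or NC replicate 3, and that of TLE4 without NC replicate 1 or 3. Fewer of all genes passed in these fits too. The share was 10.4% without MTHFD2-shRNA2 replicate 2, and 7.03%, 11.8% and 6.92% without NC replicates 1, 2 and 3. These shares also stand beside the calls lost under the same omissions below.

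In ligand endocytosis, 1 of 5 tested genes rose: EPN2, an epsin of clathrin-coated pits, was at 122, 135 and 119 CPM in MTHFD2-shRNA2 libraries and 91.3, 85.7 and 79.3 CPM in NC libraries (0.55 ± 0.10; edgeR adjusted p = 0.00526). Among 7 tested enzymes of receptor glycosylation, LFNG fell. This fringe glycosyltransferase, which alters the response of receptors to Jagged and Delta-like ligands, was at 2.83, 2.67 and 2.89 CPM in MTHFD2-shRNA2 libraries and 5.24, 4.94 and 4.78 CPM in NC libraries. The replicates were tight and the groups apart, with a log2 fold change of -0.83 ± 0.19 (edgeR adjusted p = 0.0121). The call was lost without NC replicate 1 (-0.80, edgeR adjusted p = 0.0584), a fit where 7.03% of all genes passed. In receptor turnover, 1 of 9 tested fell, the ubiquitin ligase NEDD4L (-0.42 ± 0.10; edgeR adjusted p = 0.0151), likewise lost without NC replicate 1 (edgeR adjusted p = 0.0769).

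Receptor cleavage involved 9 tested genes, of which 1 rose. APH1B, a gamma-secretase subunit, was at 20.04, 25.2 and 20.1 CPM in MTHFD2-shRNA2 libraries and 16.0, 15.4 and 14.4 CPM in NC libraries (0.51 ± 0.13; edgeR adjusted p = 0.0215), a call lost without MTHFD2-shRNA2 replicate 2 or any 1 NC library (edgeR adjusted p up to 0.0881). Neither of the 2 tested Delta-like ligands passed in edgeR or DESeq2, with 1 of them, DLL4, at an unadjusted p under 0.05. Of noncanonical ligands, EGFL7 and DLK2 were tested, with log2 fold changes of 0.06 ± 0.17 and 0.16 ± 0.26 (edgeR adjusted p = 0.835 and 0.695; neither was under 0.05 unadjusted or by DESeq2).

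The other genes of the HES, HEY and related families included 6 tested genes, BHLHE40 and BHLHE41 among them. Of the 6, HES7 rose and HES6 fell. HES7, known as an oscillating repressor of somite formation, was at 12.3, 12.6 and 13.9 CPM in MTHFD2-shRNA2 libraries and 6.16, 6.40 and 8.87 CPM in NC libraries, and rose by 0.86 ± 0.17 (edgeR adjusted p = 0.00636). HES6, which in neural cells opposes HES1, was at 10.8, 8.67 and 12.5 CPM in MTHFD2-shRNA2 libraries and 18.2, 15.6 and 23.1 CPM in NC libraries, and fell by 0.83 ± 0.18 (edgeR adjusted p = 0.00915). Both passed under each of the 6 single-library omissions, and neither has TGGGAA in its 250-base window. HES4 and HEY2, which carry GTGGGAA, had log2 fold changes of -0.42 ± 0.21 (edgeR adjusted p = 0.184) and 0.66 ± 0.44 (edgeR adjusted p = 0.311). HEY2 was low, with 12, 10 and 13 counts in MTHFD2-shRNA2 libraries and 4, 10 and 7 counts in NC libraries. HES5, with the same letters, had 0 counts in all 6 libraries. Sequence outside the 250-base windows was not searched, and any link between these letters and the changes was not tested.

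Genes reported as Notch targets in other tissues also divided. Of 6 tested, NRARP and SOX9 rose and MYC and CDKN1A fell. NRARP, a small ankyrin-repeat protein that dampens Notch signalling, was at 2.04, 1.87 and 2.25 CPM in MTHFD2-shRNA2 libraries and 0.912, 1.30 and 0.903 CPM in NC libraries (0.97 ± 0.28; edgeR adjusted p = 0.0348). Its call was lost by DESeq2 (adjusted p = 0.0571) and when any 1 library other than NC replicate 2 was omitted (edgeR adjusted p up to 0.136). With MTHFD2-shRNA2 replicate 2 alone against the NC group its log2 fold change was 0.83. SOX9, a transcription factor, rose by 0.51 ± 0.12 (edgeR adjusted p = 0.014), a call lost without NC replicate 1 (edgeR adjusted p = 0.0733). The growth regulator MYC and the cell cycle inhibitor CDKN1A fell by 0.38 ± 0.10 and 0.40 ± 0.11 (edgeR adjusted p = 0.0245 and 0.0265), each lost without MTHFD2-shRNA2 replicate 2, NC replicate 1 or NC replicate 3.

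**Figure D5:**
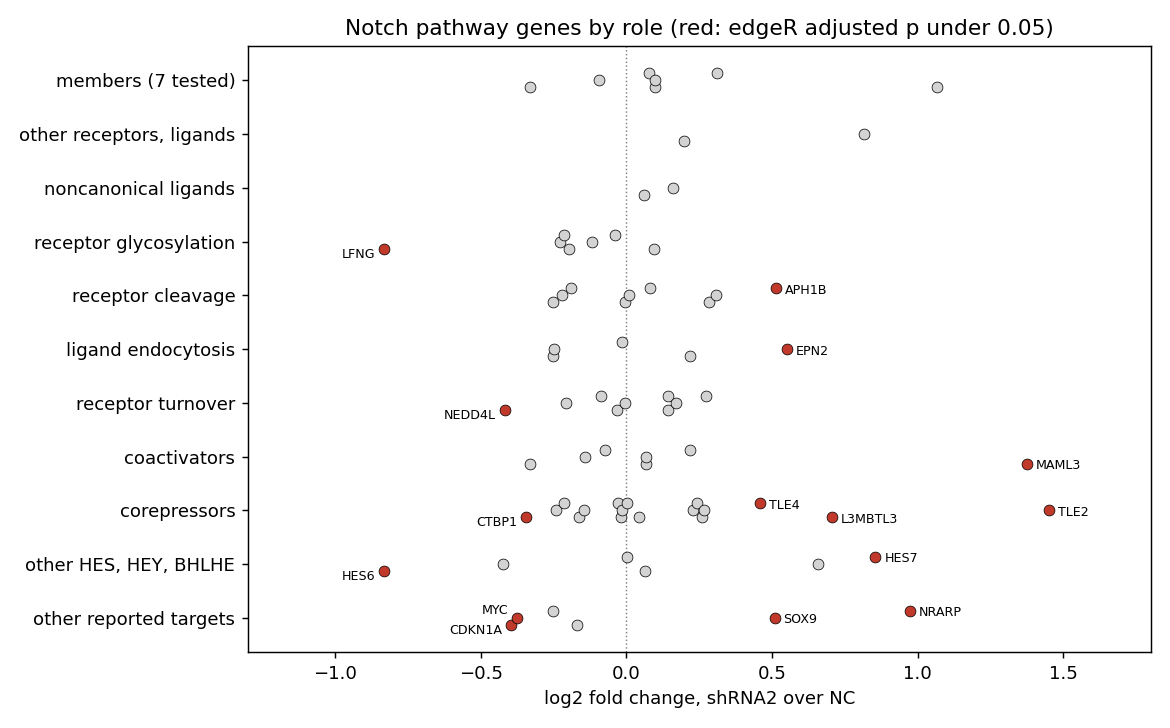
Log2 fold change, MTHFD2-shRNA2 over NC, of each tested Notch pathway gene by role, 1 point per gene; red points passed at an edgeR adjusted p under 0.05 and are named. No member passed, and of the other 70 genes 9 rose and 6 fell, with MAML3 and TLE2 furthest to the right.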

How the data were processed

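The table deposited by the authors holds raw counts by gene symbol, as whole numbers, for 6 libraries. Per the submitters' processing notes, HISAT2 2.0.4 and GRCh38 were used; for the counter, annotation, strandedness and filters, nothing is given in the sources used here. Genes kept by edgeR's filterByExpr (13896) received TMM factors, and edgeR's quasi-likelihood F test was applied (edgeR 4.0.16, limma 3.58.1, R 4.3.3), MTHFD2-shRNA2 against NC, with Benjamini-Hochberg adjustment over all of them and a threshold of 0.05. The standard error is the log2 fold change divided by the square root of F, and 95% intervals use the moderated degrees of freedom. Both procedures, DESeq2 1.42.0 included, were tested on simulated data. Floors of 3 counts cover counting error only. Positions and union exonic lengths came from GENCODE 29 on GRCh38, by symbol, for 90.3% of tested genes; promoter sequence came from RefSeq (GRCh38.p14). TLE5 was read under its older symbol AES. In GENCODE, exons of JAG1 and MAML2 overlap an antisense transcript and those of JAG2 a transcript on the same strand; without stated strandedness such reads cannot be told apart. The members and lists were chosen with earlier results of these data known. Named are all members, MTHFD2 and, from each role group, members past the threshold (up to 4 in each direction, otherwise the 2 most abundant tested), with a few others named for comparison after their values were seen. As no member passed, no genes were named for a similar pattern. The alternatives were RLE scaling, DESeq2, no or a stricter count filter, a block for the replicate number, omission of each library, MTHFD2-shRNA2 replicate 2 alone, removal of GC content and length trends, and a threshold of 0.01.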

Additional observations from a re-analysis of the deposited data

How the results depend on the processing

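The number of members that passed (0) was 1 by DESeq2 and 1 without the low-count filter (MAML2), and 0 to 1 when a library was left out. The other pathway genes that passed (15) numbered 6 to 16 when a library was left out, 6 without NC replicate 1, 8 without NC replicate 3 and 9 without MTHFD2-shRNA2 replicate 2, and 5 at a threshold of 0.01. Over all genes, 2402 passed; the count was 986 to 2645 when a library was left out (986 without NC replicate 3, 1003 without NC replicate 1, 1469 without MTHFD2-shRNA2 replicate 2), 4432 with MTHFD2-shRNA2 replicate 2 alone and 749 at a threshold of 0.01.

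With the replicate number as a block, 2 of the 7 tested members (RBPJ and MAML2) and 25 of the 70 other tested pathway genes passed. Over all tested genes 5062 of 13896 passed there, or 36.4%. Deviations from the group means correlated at -0.02, 0.297 and 0.353 between the libraries numbered 1, 2 and 3. MTHFD2-shRNA2 replicates 2 and 3 each correlated best with the NC library of their own number. MTHFD2-shRNA2 replicate 1 correlated weakly with every NC library, at most 0.048, with NC replicate 3. The labels do not say that the numbers pair the libraries, and these values do not settle it.

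Members far from the threshold changed sign. Removal of GC content and length trends gave log2 fold changes of -0.042 for NOTCH2 and 0.015 for HES1. Leaving out a library gave -0.063 to 0.22 for NOTCH1, -0.050 to 0.24 for NOTCH2, -0.072 to 0.20 for JAG1 and -0.23 to 0.058 for HES1. RBPJ (0.24 to 0.38), MAML2 (0.69 to 1.38), JAG2 (-0.42 to -0.25) and MTHFD2 (-2.62 to -2.39) kept their direction there. Without scaling by length, NOTCH2 made up 96.1% of the member receptors in MTHFD2-shRNA2 and in NC cells, and JAG1 82.7% of the member ligands in MTHFD2-shRNA2 and 78.3% in NC cells. The cause of these shifts was not tested, apart from length scaling itself. Depth limited NOTCH3, DLL1 and HEY1.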

Other observations

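Replicate 3 was the lowest library of both groups for 3 of the 7 tested members (NOTCH2, JAG2 and MAML2), a pattern seen after the values were known. Over all tested genes this held for 21.3%. It held for 43.9% of the 3139 tested genes with the longest exonic length (at least 7473 bases). For the 3140 with the shortest (at most 3083 bases) the share was 5.99%. NOTCH2 was among the longest, but so were NOTCH1, JAG1 and RBPJ, which lacked the pattern. JAG2 and MAML2 were in neither of these sets. The labels do not say that a replicate number marks a shared batch, and what lies behind the pattern was not tested.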
